A study of Mus musculus with 8 samples.

Results

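Expression of the Hox genes was measured in kidneys of mouse embryos (embryonic day 16.5). The set held 38 genes of the Hoxa, Hoxb, Hoxc and Hoxd clusters, taken by symbol, among 20887 genes named on the array. All 38 had at least 1 probe, and 32 passed the filter on dim probes. The KO group was 4 kidney pairs of C57BL/6 background in which Dot1 had been deleted in the Six2-positive nephron progenitors, read here as the gene Dot1l. The WT group was 4 kidney pairs from C57BL/6 control embryos without the knockout. The kidney also holds many cells outside the Six2 lineage, so a deletion in that lineage is read through the RNA of the whole organ, where fewer cells of a type and less RNA per cell cannot be told apart. The labels give no further allele or agent.

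Hox genes encode homeodomain transcription factors that lie in 4 clusters, and their order along a cluster follows the order in which they act along the body axis, from anterior (low paralog numbers) to posterior (high numbers). Genes with the same number in different clusters are paralogs and often share functions. In the mouse kidney, the paralogs Hoxa11, Hoxc11 and Hoxd11 act in the nephron progenitors, where Six2 and the growth factor gene Gdnf depend on them, the paralogs Hoxa10, Hoxc10 and Hoxd10 act in the stroma, and Hoxb7 marks the ureteric bud. DOT1L methylates histone H3 lysine 79 in transcribed genes. Hoxa9 is among the genes that depend on DOT1L in leukaemias with MLL fusion proteins.

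Each sample was labelled red (Cy5) and hybridised with green (Cy3) RNA of the WT1 kidneys, so every value below is a log2 ratio to WT1 RNA and the WT1 array compared WT1 RNA with itself. Differences are KO minus WT means of these ratios. The WT1 and KO1 arrays stood apart. The median red signal of the negative-control spots was 1361 scanner units on WT1 and 478.2 on KO1, against 58 to 61 on the other 6 arrays. KO and WT samples occupied different slide rows, so row and group cannot be told apart. By the Y-linked gene Ddx3y all 4 KO embryos but only 1 WT embryo (WT2) were male. Sex and group were thus nearly confounded. With sex as a model term, the difference is the KO mean minus WT2 alone. The Dot1l probe gave -0.13, -0.04, -0.21 and -0.11 in KO1 to KO4 and -0.23, -0.21, -0.09 and -0.09 in WT1 to WT4. Its position relative to the deleted part was not analysed here, so it does not check the labels.

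The Hox genes Hoxa9, Hoxd10 and Hoxd11, all of paralog groups 9 to 11, fell in KO kidneys, and none rose. They are 3 of the 32 tested Hox genes, while 0.544% of the 13982 genes tested were lower in KO at an adjusted p under 0.05 (limma with Benjamini-Hochberg adjustment over all genes) 1.61% were higher and 2.15% passed in either direction. Their promoters are shown first, as the regulatory sequence of the genes that the test called. The lines give the 250 bases before each transcription start on the gene's own strand, from RefSeq (GRCm38.p6), with every CG dinucleotide in capitals.
Hoxa9 (chr6:52227371-52227620, minus strand): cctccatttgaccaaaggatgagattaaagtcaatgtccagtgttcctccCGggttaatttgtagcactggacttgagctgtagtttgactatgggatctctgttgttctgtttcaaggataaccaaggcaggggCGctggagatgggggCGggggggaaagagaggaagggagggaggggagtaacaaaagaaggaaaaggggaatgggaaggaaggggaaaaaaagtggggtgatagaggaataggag
Hoxd10 (chr2:74691641-74691890, plus strand): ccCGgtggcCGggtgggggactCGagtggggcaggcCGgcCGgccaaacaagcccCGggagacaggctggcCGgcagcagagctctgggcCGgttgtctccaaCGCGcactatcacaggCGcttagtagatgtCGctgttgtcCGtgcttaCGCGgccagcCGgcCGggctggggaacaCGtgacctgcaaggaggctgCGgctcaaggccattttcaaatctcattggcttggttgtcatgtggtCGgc
Hoxd11, upstream start (chr2:74679308-74679557, plus strand): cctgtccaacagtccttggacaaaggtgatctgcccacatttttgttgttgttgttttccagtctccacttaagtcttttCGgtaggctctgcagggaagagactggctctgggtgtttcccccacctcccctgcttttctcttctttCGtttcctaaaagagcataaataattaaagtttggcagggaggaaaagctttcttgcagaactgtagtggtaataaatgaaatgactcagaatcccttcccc
Hoxd11, downstream start (chr2:74682073-74682322, plus strand): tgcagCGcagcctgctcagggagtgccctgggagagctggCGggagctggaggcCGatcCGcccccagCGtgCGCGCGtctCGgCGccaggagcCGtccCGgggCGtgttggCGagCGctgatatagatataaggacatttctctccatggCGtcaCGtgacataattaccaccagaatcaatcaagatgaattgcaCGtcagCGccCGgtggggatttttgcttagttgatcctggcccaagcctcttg
The windows differed in base composition. Hoxd10 and the downstream start of Hoxd11 held 20 CG dinucleotides each, whereas Hoxa9 held 3 and the upstream start of Hoxd11 held 2. The median was 12.5 over the 24 windows of 22 Hox genes and 6 over all 32851 windows in the table. The annotated windows of the genes that fell thus did not share a single type by this measure. Which start was in use in the kidney was not tested. Of 3 short motifs searched on both strands, TTTATG and TTTACG (bound by posterior HOX and CDX proteins) and TGACAG (bound by MEIS proteins), 1 match was found in these 4 windows. It was a TTTATG on the minus strand that begins 87 bases before the upstream Hoxd11 start. TTTATG occurred in 10.8% of all windows, TTTACG in 2.61% and TGACAG in 15.9%. Among the 24 Hox windows the shares were 20.8%, 4.17% and 8.33%.

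Hoxa9, a posterior gene known for its part in blood progenitors and in MLL leukaemia, had the largest difference of the tested Hox genes. Its log2 ratios were -0.52, -0.43, -0.47 and -0.60 on KO1 to KO4 and 0.03, 0.24, -0.07 and 0.25 on WT1 to WT4. All 4 KO arrays lay below every WT array, without overlap. It was 1.53-fold lower in KO, a log2 difference of -0.62 ± 0.10 (SE, 4 arrays per group, 95% interval -0.83 to -0.41, limma adjusted p = 0.00768). A second, dimmer Hoxa9 probe gave -0.74, -0.27, -0.16 and -0.41 on KO1 to KO4 and -0.57, 0.45, 0.14 and 0.02 on WT1 to WT4. Its groups overlapped through WT1, and its difference of -0.41 ± 0.19 did not pass (limma adjusted p = 0.376 over 18146 kept probes, of which 0.419% were lower). With the mean of both probes Hoxa9 differed by -0.51 and did not pass (limma adjusted p = 0.0645), and with sex as a model term it differed by -0.75 (limma adjusted p = 0.107). It passed without WT1 and KO1 together, where it differed by -0.64 (limma adjusted p = 0.0313).

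Hoxd10, a paralog of the stromal Hoxa10 and Hoxc10, had log2 ratios of -0.39, -0.38, -0.20 and -0.23 on KO1 to KO4 and -0.06, 0.06, 0.16 and 0.14 on WT1 to WT4. The KO arrays again lay below every WT array. It was 1.30-fold lower, a log2 difference of -0.38 ± 0.09 (SE, 95% interval -0.57 to -0.19, limma adjusted p = 0.0481). Hoxd11, one of the 3 paralogs of group 11 that act in nephron progenitors, had -0.34, -0.30, -0.25 and -0.22 on KO1 to KO4 and 0.09, 0.10, -0.03 and 0.19 on WT1 to WT4. These groups did not overlap either, and Hoxd11 was 1.29-fold lower, a difference of -0.37 ± 0.08 (SE, 95% interval -0.54 to -0.19, limma adjusted p = 0.0405). The second Hoxd11 probe read 0.30 on KO3 but -0.54, -0.22 and -0.32 on KO1, KO2 and KO4, against -0.13, 0.16, 0.06 and -0.13 on WT1 to WT4, so its groups overlapped (difference -0.18 ± 0.15, limma adjusted p = 0.677).

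In the reported fit the calls of Hoxd10 and Hoxd11 lay closer to the threshold than that of Hoxa9. When 1 array at a time was left out, Hoxa9 passed all 8 times, with differences between -0.68 and -0.57. Its limma adjusted p then lay between 0.00827 and 0.0402. Hoxd10 passed only without WT1 and Hoxd11 only without WT3, although their differences stayed between -0.43 and -0.35 and between -0.41 and -0.33. The number of Hox genes that fell was 1 without KO2, KO4, WT2 or WT4, beside 40, 32, 50 and 41 of all 13982 genes. It was 2 without KO1 (Hoxa9 and Hoxc10), KO3 (Hoxa9 and Hoxa6) or WT3 (Hoxa9 and Hoxd11), beside 82, 63 and 61 of all genes. Without WT1 it was 3 (Hoxa9, Hoxd10 and Hoxa6), beside 68 of all genes. Without WT1 and KO1 together the count was 2 (Hoxa9 and Hoxa6), beside 0.501% of all genes, Hoxd10 differed by -0.40 (limma adjusted p = 0.0703) and Hoxd11 by -0.34 (limma adjusted p = 0.109). With the replicate number as a block, 5 Hox genes fell, beside 0.794% of all genes, and 1 rose, beside 3.18%. These were the same 3 genes with Hoxa6 and Hoxc10, which fell, and Hoxb9, which rose. With sex as a term, which sets the KO arrays against WT2 alone, none of the 32 passed. Hoxd10 and Hoxd11 then differed by -0.37 and -0.38. In that fit 8 of the 32 had an unadjusted p under 0.05 in limma, beside 1662 of all 13982 genes.

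**Figure D1:**
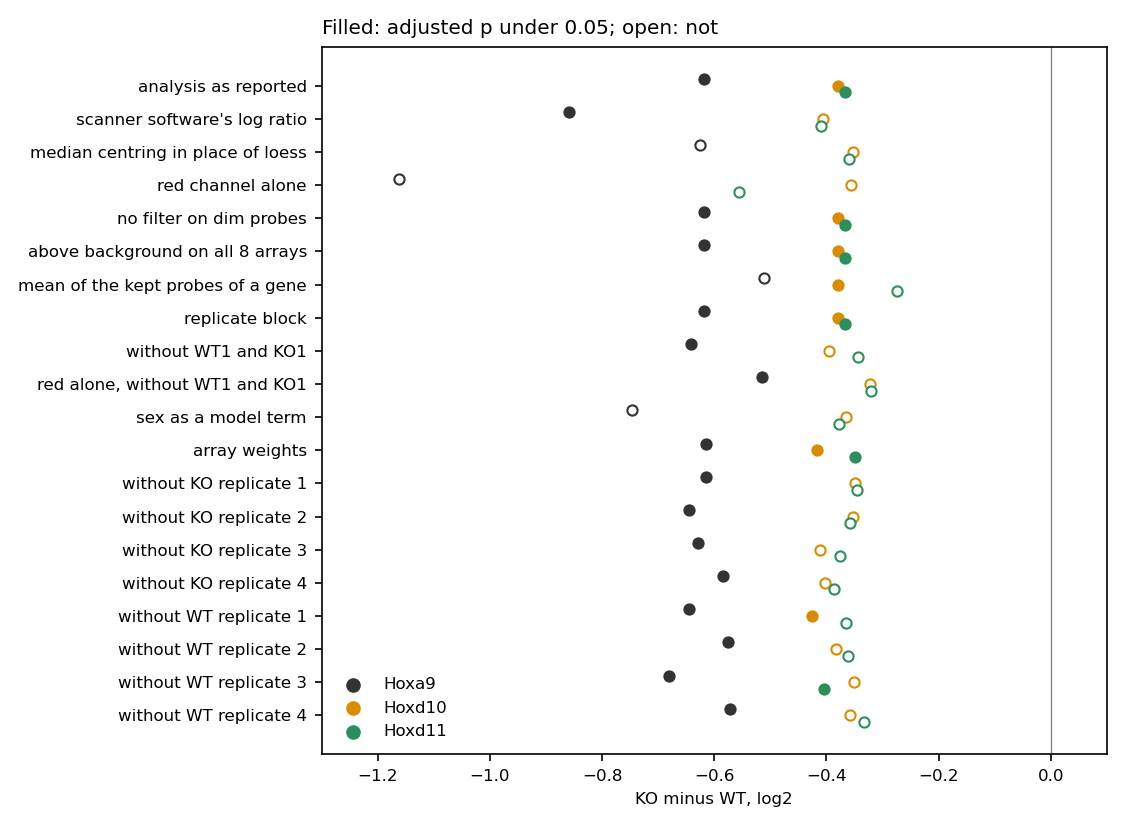
Difference between KO and WT (log2, horizontal axis) of Hoxa9, Hoxd10 and Hoxd11 in the reported analysis and in 19 alternative settings (vertical axis), with filled points where the adjusted p was under 0.05. Hoxa9 was filled in 15 of the 19 alternatives, Hoxd10 in 6 and Hoxd11 in 5, and all points of the 3 genes lie left of 0.

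The 4 genes next in order of p did not pass. Hoxa6, a gene of the middle of the cluster, had 0.03, -0.10, 0.16 and -0.12 on KO1 to KO4 and 0.20, 0.67, 0.60 and 0.39 on WT1 to WT4. The groups did not overlap, and the difference was -0.47 ± 0.11 (SE, limma adjusted p = 0.0554). It passed with the replicate block (adjusted p = 0.0333), without WT1 and KO1 together (-0.57, limma adjusted p = 0.0428), without WT1 (-0.56, limma adjusted p = 0.0331), without KO3 (-0.53, limma adjusted p = 0.0494) and with array weights (-0.57, limma adjusted p = 0.00852). Hoxc10 had 0.05, -0.30, -0.56 and -0.07 on KO1 to KO4 and 0.28, 0.10, 0.12 and 0.37 on WT1 to WT4, again without overlap, for a difference of -0.44 ± 0.13 (limma adjusted p = 0.109; adjusted p = 0.0287 with the replicate block, and 0.0484 without KO1, where it differed by -0.53). Hoxa10 had -0.53, -0.20, -0.31 and -0.31 on KO1 to KO4 and -0.12, 0.00, -0.07 and 0.00 on WT1 to WT4. Its groups did not overlap and it differed by -0.29 ± 0.09 (limma adjusted p = 0.142). Hoxc4 was the only one of the 4 that was higher, with 0.35, 0.57, 0.56 and 0.45 on KO1 to KO4 and -0.17, 0.10, 0.48 and 0.05 on WT1 to WT4. WT3 lay among the KO arrays, the difference was 0.37 ± 0.12 (limma adjusted p = 0.169), and without WT3 it was 0.49 (limma adjusted p = 0.0406).

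**Figure D2:**
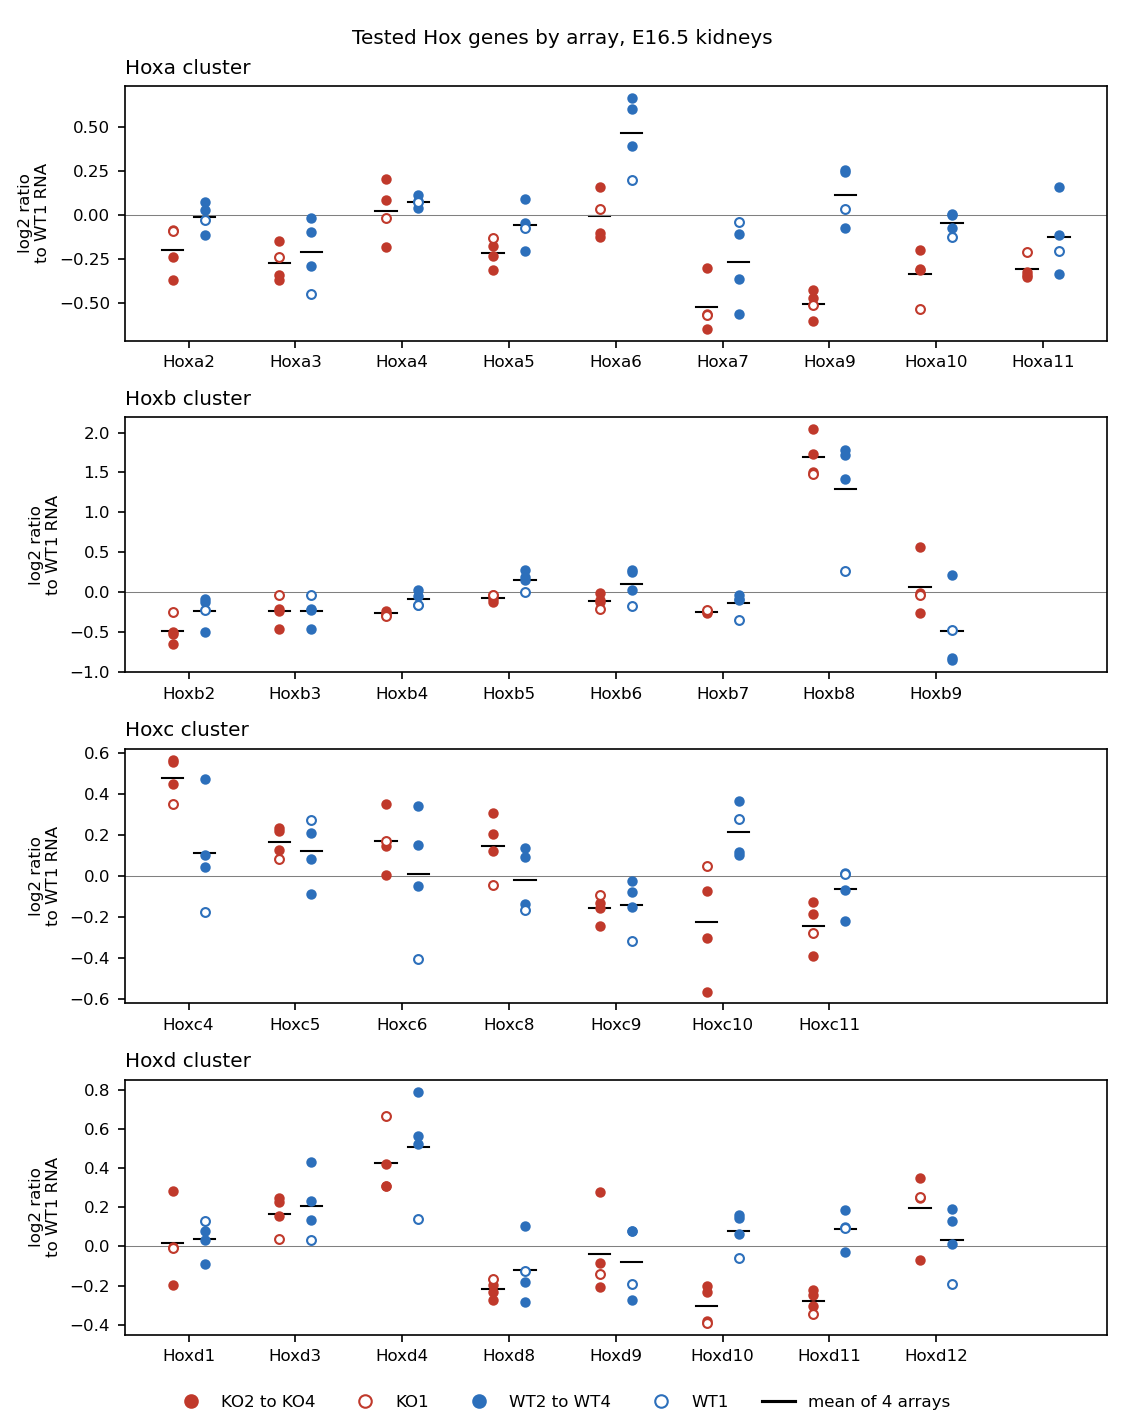
Log2 ratio to WT1 RNA (vertical axis) of each of the 32 tested Hox genes on each array, by cluster, with KO left of WT, open points for KO1 and WT1 and bars for the mean of 4 arrays. KO and WT points are separate for 8 genes, among them Hoxa6, Hoxa9, Hoxa10, Hoxc10, Hoxd10 and Hoxd11, and Hoxb8 lies between 1.41 and 2.05 on every array but WT1.

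In the Hoxa cluster on chromosome 6, all 9 tested genes had a negative difference, as did 40.7% of all genes. Of the 9, 1 passed, beside 0.544% of all genes that were lower. The median was -0.19, against 0.03 over all 13982 genes. The 5 genes not yet described from the anterior and middle part were Hoxa2, which patterns the hindbrain and second pharyngeal arch (-0.19), Hoxa3, needed for thymus and parathyroid (-0.06), Hoxa4 (-0.05), Hoxa5, a regulator of lung growth (-0.16), and Hoxa7 (-0.25). Hoxa11, the paralog of Hoxd11, had -0.21, -0.34, -0.35 and -0.32 on KO1 to KO4 and -0.20, -0.33, 0.16 and -0.11 on WT1 to WT4. WT2 lay among the KO arrays and WT1 just above them, and the difference was -0.18 ± 0.11 (limma adjusted p = 0.468). It was -0.09 without WT3 and 0.03 with sex as a term, where WT2 is the only WT array compared. The median ratio of the Hoxa genes was -0.32 to -0.21 on the KO arrays and -0.05 to 0.03 on the WT arrays. In the red channel alone 5 of the 9 Hoxa genes were lower and 4 higher, while without WT1 and KO1 in that channel all 9 were lower. With sex as a term 7 were lower and 2 higher. Hoxa13, which acts in the limb and the hindgut, was below the filter.

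The long noncoding RNA Hoxa11os, transcribed opposite Hoxa11 and matched by its own accession, also fell. It had -0.58, -0.37, -0.40 and -0.65 on KO1 to KO4 and -0.11, 0.26, 0.07 and 0.06 on WT1 to WT4, a difference of -0.57 ± 0.10 (limma adjusted p = 0.015). Its groups did not overlap, while those of Hoxa11 did, and the difference between the pair was not tested. The other tested noncoding or unclassified genes within the clusters did not pass. They were Gm53 in the Hoxb cluster (-0.17 ± 0.11, limma adjusted p = 0.517) and Hoxd3os1 in the Hoxd cluster (-0.20 ± 0.11, limma adjusted p = 0.447). Of the flanking genes, 2 were tested. Skap1 beside the Hoxb cluster differed by 0.13 and Mtx2 beside the Hoxd cluster by 0.00.

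In the Hoxb cluster on chromosome 11, none of 8 tested genes passed and the median was -0.14. At an unadjusted p under 0.05 in limma there were 4, beside 14.5% of all genes. The genes Hoxb2 to Hoxb7 lay at or below 0, at -0.25 for Hoxb2, 0.00 for Hoxb3, -0.18 for Hoxb4, -0.23 for Hoxb5, -0.21 for Hoxb6 and -0.11 for the ureteric bud gene Hoxb7. Hoxb4, used to expand blood stem cells, and Hoxb5, which acts in the enteric neural crest, were lower without overlap, as were 2.46% of all genes. Their limma adjusted p values were 0.318 and 0.222. The second Hoxb3 probe gave -0.04. In the red channel alone the cluster median was 0.45. Hoxb8 and Hoxb9 had positive differences with wide intervals. Hoxb9 had -0.04, -0.01, 0.56 and -0.26 on KO1 to KO4 and -0.47, -0.86, 0.21 and -0.83 on WT1 to WT4, with the third array high in both groups. Its groups overlapped and it differed by 0.55 ± 0.23 (95% interval 0.06 to 1.04, limma adjusted p = 0.272; adjusted p = 0.0135 with the replicate block). Hoxb8, which is also known from microglia, had 1.48 to 2.05 on the KO arrays and 0.26, 1.78, 1.72 and 1.41 on WT1 to WT4, so that WT1 alone was low (0.40 ± 0.27, limma adjusted p = 0.568; 0.05 without WT1). Hoxb1, a gene of the hindbrain, and Hoxb13, of the tail and prostate, were not well above background on any array.

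In the Hoxc cluster on chromosome 15, none of 7 tested genes passed (2 at an unadjusted p under 0.05 in limma, beside 14.5% of all genes) and the median was 0.05. With 1 array left out it lay between 0.02 (without WT1) and 0.08 (without WT3), and it was 0.07 without KO1, 0.03 without KO3 or WT2 and 0.02 without KO4. Beside Hoxc4 and Hoxc10, Hoxc5 differed by 0.05, Hoxc6 by 0.16, Hoxc8, a gene of brachial motor neurons, by 0.17, Hoxc9 by -0.01 and Hoxc11 by -0.18. Hoxc11, the third kidney paralog of group 11, had -0.28, -0.13, -0.19 and -0.39 on KO1 to KO4 and 0.01, 0.02, -0.07 and -0.22 on WT1 to WT4, and the groups overlapped through WT4 (± 0.09, SE; limma adjusted p = 0.403). The KO medians of the cluster (0.01 to 0.13) and the WT medians (-0.17 to 0.10) overlapped. Hoxc12 was below the filter and Hoxc13, a gene of hair and nails, was not well above background on any array.

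In the Hoxd cluster on chromosome 2, 2 of the 8 tested genes fell, beside 0.544% of all genes. These were neighbours, and the genes on either side of them did not pass. With 1 array left out, Hoxd10 and Hoxd11 each passed in only 1 of 8 fits, and the second Hoxd11 probe did not pass. Hoxd9 differed by 0.04 ± 0.12 and Hoxd12, a gene of the digits, by 0.16 ± 0.11. Of the anterior genes, Hoxd1 differed by -0.02, Hoxd3, which patterns the first vertebrae, by -0.04, Hoxd4 by -0.08 and Hoxd8 by -0.10. The median of the 8 tested genes was -0.06, and in the red channel alone it was 0.22. With 1 array left out it lay between -0.10 (without WT1) and -0.02 (without WT2), and it was -0.04 without KO4. Hoxd13, which acts in the digits and the genital tubercle, was not well above background on any array.

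**Figure D3:**
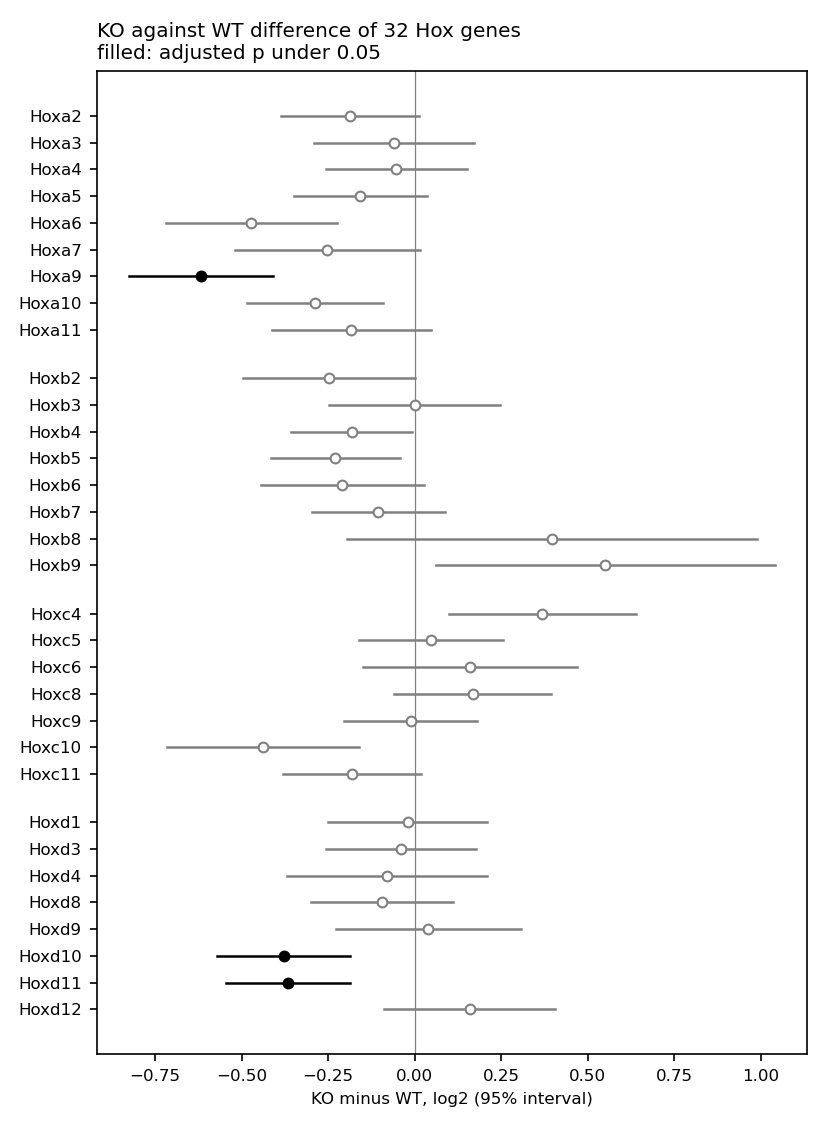
Difference between KO and WT (log2) with its 95% interval for the 32 tested Hox genes in cluster order, filled where the adjusted p was under 0.05. Hoxa9 at -0.62, Hoxd10 at -0.38 and Hoxd11 at -0.37 are filled, and the intervals of Hoxb8 and Hoxb9 are the widest.

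By paralog group, the 3 genes of group 10 had the lowest median (-0.38), with Hoxa10, Hoxc10 and Hoxd10 all lower without overlap (2.46% of all genes) and 1 of them past the test (0.544% of all genes). The 3 genes of group 11 had differences of -0.18, -0.18 and -0.37. Group 9 was mixed, with Hoxa9 at -0.62, Hoxb9 at 0.55, Hoxc9 at -0.01 and Hoxd9 at 0.04. Group 4 was mixed as well, from -0.18 for Hoxb4 to 0.37 for Hoxc4. None of the genes of groups 1 to 3 passed (6 tested, 1 at an unadjusted p under 0.05 in limma, beside 14.5% of all genes). Their differences lay between -0.25 and 0.00. Of the 5 genes of group 13 and group 12 that were dim, none had more than 1 KO and 1 WT array above background.

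**Figure D4:**
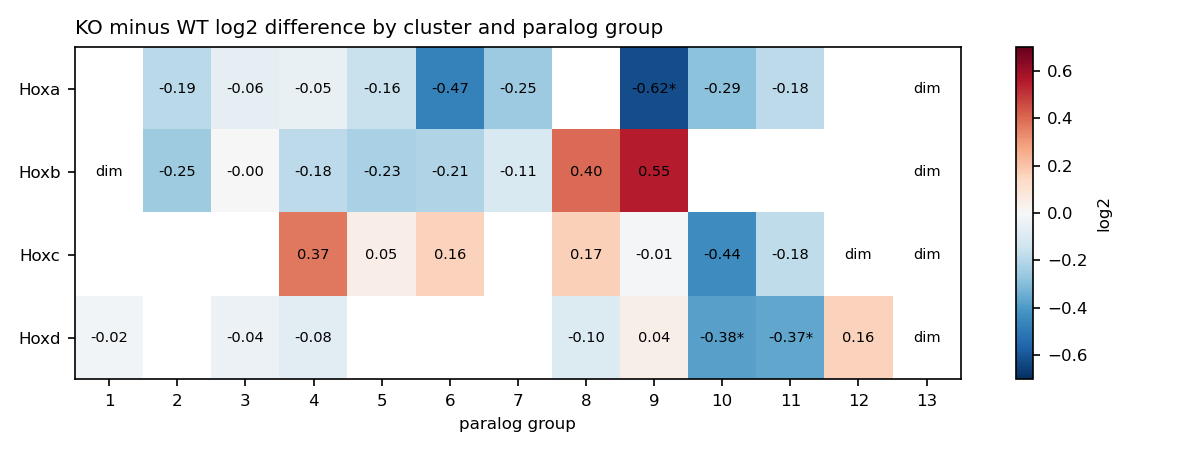
Difference between KO and WT (log2, colour and number) by cluster (rows) and paralog group (columns), with an asterisk for an adjusted p under 0.05, "dim" for genes below the filter and blanks where the set has no gene. Negative values fill the Hoxa row. Of these 9 genes, 4 turn positive in the red channel alone, and none without WT1 and KO1 in that channel. The Hoxc row turns from positive values at groups 4 to 8 to negative values at groups 10 and 11.

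Across the 32 tested genes, 24 had a negative difference, as did 40.7% of all genes tested, and the median was -0.10, against 0.03 over all genes. In the red channel alone 12 of the 32 were negative (37.5%), as were 27.5% of all genes, and the Hox median was 0.22, as was that of all genes (0.22). Without WT1 and KO1 in that channel 24 were negative (75.0%), as were 54.9% of all genes, at a Hox median of -0.24 and a median over all genes of -0.02. The groups did not overlap in 8 Hox genes, all lower in KO, where 2.46% of all genes were lower and 6.82% higher without overlap (9.28% in either direction). For 23 of the 32 the 95% interval lay within 0.5 log2 units on either side of 0. The same held for 12033 of the 13982 genes tested. Neighbouring genes of a cluster are not independent measurements.

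Genes listed as related to the Hox genes were examined, from lists chosen with earlier results known. None of the 11 tested partner genes of the TALE class (Pbx, Meis, Pknox and Tgif), whose proteins bind DNA together with HOX proteins, passed, with a median of -0.01. Meis1 had 0.33, 0.33, 0.46 and 0.35 on KO1 to KO4 and -0.24, 0.19, 0.12 and 0.03 on WT1 to WT4, without overlap (0.34 ± 0.10, limma adjusted p = 0.114). Of 14 tested kidney genes listed as partners of the group 11 paralogs, 4 fell and none rose, with a median of -0.13. Whether each acts with these paralogs was not tested. They were Cited1 (-2.72), Meox2 (-1.93), the integrin gene Itga8 (-0.40), and Wt1 (-0.40), a zinc finger regulator of nephron progenitors. Six2 itself differed by -0.21 ± 0.12 (limma adjusted p = 0.439) and Gdnf by 0.08 ± 0.11. None of 20 tested regulators of the clusters, among them Polycomb genes, retinoic acid receptors and DOT1L partners, passed, with a median of 0.03. The lowest p values among them were those of Rarg (0.32 ± 0.10, limma adjusted p = 0.155) and Rarb (0.32 ± 0.10, limma adjusted p = 0.158).

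Markers of kidney cell types moved between the groups as well, in the same arrays. Of 8 nephron progenitor markers 3 fell and none rose, and their median ratio was -0.45 to -0.13 on the KO arrays and -0.08 to 0.19 on the WT arrays. Of 10 stromal markers 4 rose and none fell, with medians of 0.30 to 0.45 on the KO arrays and -0.19 to 0.05 on the WT arrays. Of 10 ureteric bud and collecting duct markers 1 rose, Krt19 (0.54), and none fell. Of 4 tested macrophage markers 3 rose. Of 9 tested markers of ureter and urothelium and 4 of gonad, none passed. Of the tested markers of neurons and neural crest, 1 of 6 rose (Phox2a, 0.56) and 1 fell (Elavl4, -0.97), of 2 for adrenal cortex none passed, and for skeletal muscle the single one tested, Tnnt3, rose (0.77) while the defining markers Myog and Myod1 were below the filter. Cited1 and Itga8 stand both in this progenitor list and in the list of group 11 partners, and Meis1 both in the stromal list and among the TALE genes. The part of these shifts in the Hox values was not tested.

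**Figure D5:**
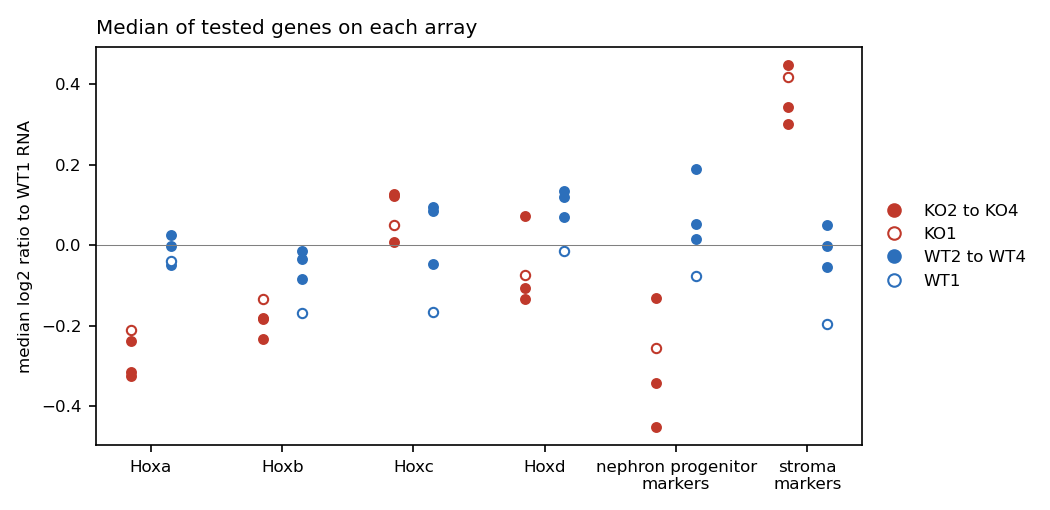
Median log2 ratio to WT1 RNA (vertical axis) on each array of the tested genes of each Hox cluster and of the nephron progenitor and stromal markers, with KO left of WT and open points for KO1 and WT1. The KO and WT medians are separate for Hoxa and for both marker lists and overlap for the other 3 clusters.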

How the data were processed

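Arrays were read with Agilent's Feature Extraction software, version 10.7.3.1 (submitters' processing notes). The intensity columns used are the deposited median red and green spot signals with local backgrounds, not normalized. The deposited processed intensities and their log10 ratio were made by the scanner software, per the file headers, and other deposited columns hold flags of 0 or 1. In the series' deposited value table, 100% of 59305 spots per array lay within 0.01 of these log10 ratios (each column's median 0). One slide and 1 scan date held all 8 arrays. The number of arrays limits the precision.

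In R 4.3.3 with limma 3.58.1, signals were background-corrected by normexp (offset 50), then loess-normalized array by array (weight 0 for controls) to give log2 ratios. Outlier readings were left out (1765). Probes were named by RefSeq accession (27509 of 55681 gave a symbol; reference GRCm38.p6, names and gene order only, since the file headers name another build), kept if well above background in red on at least 4 of 8 arrays, and the brightest kept probe stood for its gene. limma's lmFit and eBayes tested 13982 genes, with Benjamini-Hochberg adjustment over all of them and a threshold of 0.05. The scripts were tested on simulated data with independent noise, where 38% of changes of 0.4 log2 units and 84% of those of 0.6 were recovered. A gene that did not pass is thus not shown to be unchanged. SE is the moderated standard error.

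The design named every Hox gene, with all arrays for those that passed and the 4 next by p, and from each further list those that passed or the 2 with the smallest p; others were named after their values were seen. Members and lists were chosen with earlier results of these data known. Some genes are not reported here. The design text calls the samples biological replicates, and the titles call each a kidney pair. Same-numbered arrays share a slide column, and their deviations from the group means correlated at 0.138, 0.374, 0.258 and 0.304. KO1 and KO3 correlated more with another number. Only the replicate block took same-numbered arrays as pairs. The reported test was fitted without that block and used no pairing. The alternatives were 19 settings of background, normalization, probe filter and choice, block, sex, array weights and left-out arrays.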

Additional observations from a re-analysis of the deposited data

How the results depend on the processing

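The number of Hox genes that fell (3) was 1 with the scanner software's ratios, with the mean of a gene's kept probes, and in the red channel alone without WT1 and KO1. It was 0 with median centring, in the red channel alone and with sex as a term (KO against WT2 alone). At an unadjusted p under 0.05 in limma these settings held 0, 1 and 8 of the 32 Hox genes. Beside them stood 178, 106 and 1662 of all 13982 genes. Under the replicate block 5 fell and 1 rose. With 1 array left out, between 1 and 3 fell and between 0 and 1 rose. The count over all genes (301) was 123 with the software's ratios, 0 with median centring (178 at an unadjusted p under 0.05), 1 in the red channel alone, 556 under the replicate block, 12 with sex as a term and, in the red channel without WT1 and KO1, 150. It was 83 to 345 with 1 array left out. The Hoxa median (-0.19) was -0.35 with the software's ratios, -0.25 with probes above background on all 8 arrays, -0.31 in the red channel alone without WT1 and KO1, and -0.25 to -0.17 with 1 array left out. The Hoxb median (-0.14) was 0.45 in the red channel alone, and -0.27 there without WT1 and KO1. In the red channel alone the Hoxc median was 0.31 and the Hoxd median 0.22, where the median of all genes was 0.22, and the Hoxd median was -0.19 with sex as a term. Hoxa9 in the red channel alone differed by -1.16. Of the 29 Hox genes not called, 9 kept the sign of their difference in every setting that tested them and 20 changed it in at least 1. The cause of these changes was not tested. Signal over background limits Hoxa13, Hoxb1, Hoxb13, Hoxc12, Hoxc13 and Hoxd13, for which no difference is given.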

Other observations

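Hoxb8 separated the WT1 array from all others. Its log2 ratio was 1.48 to 2.05 on the KO arrays and 1.41 to 1.78 on WT2 to WT4, but 0.26 on WT1, where the same RNA was in both colours. The green signal of its probe, always WT1 RNA, spanned 224 to 321.5 units over the 6 arrays other than WT1 and KO1, while the red signal there was 1664 to 2473 on KO2 to KO4 and 2125 to 2782 on WT2 to WT4. On WT1 itself the probe read 6131 in red and 1444 in green. The median red signal of all non-control spots on that array was 5071.5. No dyes were swapped, and the cause was not tested. Hoxd4 had a similar but smaller pattern, at 0.31 to 0.67 on the KO arrays, 0.52 to 0.79 on WT2 to WT4 and 0.14 on WT1.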
